A study of Mus musculus with 12 samples.

Results

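Whole-lung RNA from mice given the treatment labelled CRE was compared between 2 genotypes, Cc10-Cre;Rhoafl/fl (genotype label RhoACKO, here CKO_CRE) and Cc10-Cre (genotype label RhoAWT, here WT_CRE). The comparison used 3 libraries a side, chosen by their title, or 6 of the 12 libraries of the series, and all genes. The other 6 libraries are the same genotypes given PBS (WT_PBS and CKO_PBS, 3 each). They entered the model, and their values are given beside the CRE values. Both genotypes carry Cre under the Cc10 promoter, so by their labels the groups differ by the floxed *Rhoa* alleles and not by Cre. Other genetic differences between the groups are not described in the labels. What CRE stands for is not written out in the labels, where it names the treatment, as distinct from the Cre recombinase. The labels give no strain, age or sex, and do not say whether the libraries of a group come from separate animals, so p-values measure the spread between these libraries, which may in part be technical. Y-linked counts (below) show both sexes in each CRE group, so its libraries do not all come from the same animal.

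*Rhoa* encodes a small GTPase that switches between a GTP-bound and a GDP-bound state and, through the ROCK kinases, sets actomyosin tension, cell shape and the stability of cell junctions. Cc10, the product of *Scgb1a1*, marks club (Clara) cells, the secretory cells of the small airways, which detoxify inhaled compounds and can renew the airway lining. In allergic airway disease the epithelium releases alarmins such as IL-33, type 2 lymphocytes answer with IL-4, IL-5 and IL-13, and macrophages take up an alternatively activated state and secrete eotaxins. The series title asks how RhoA in these cells bears on allergic inflammation, the airway barrier and interstitial macrophages.

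The 6 CRE libraries held 16250674 to 19414298 counts, with 23206 to 24523 genes detected. CKO_CRE replicate 2 stood apart from the other knockout libraries. Its Spearman correlation of log2 CPM (counts scaled to a common library total) was 0.981 to 0.988 with the 3 WT_CRE libraries, against 0.966 with CKO_CRE replicate 1 and 0.976 with replicate 3, which correlated with each other at 0.986. On the main component of variation over the 12 libraries, which separates CRE from PBS, it scored 82.6, among the WT_CRE scores of 71.6 to 84.7 and away from 10.1 and 31.2 in the other knockout libraries. Counts of called genes are therefore given for all libraries and, for most lists, again without CKO_CRE replicate 2. This library was singled out by its values, for its likeness to the controls. Leaving it out thus tends to enlarge the differences, and adjusted p-values of that fit do not allow for the choice. Y-linked counts placed 1 male and 2 female libraries in each CRE group. Of the PBS libraries, all of WT_PBS and CKO_PBS replicates 1 and 3 were male, and CKO_PBS replicate 2 was female. Sex was thus not balanced between the treatments or between the PBS genotypes. Lung markers such as *Sftpc* (8596 to 12137 CPM) were abundant, whereas *Scgb1a1* itself, the gene whose promoter drives Cre, was low, at 5.90 to 20.2 CPM in the CRE libraries.

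The targeted gene was not called lower in whole lung. *Rhoa* (ENSMUSG00000007815, GRCm38 chr9:108306129-108337934, plus strand) stood at 523, 531 and 521 CPM in WT_CRE, against 465, 544 and 495 CPM in CKO_CRE, with overlapping ranges and a log2 fold change of -0.07 ± 0.10 (SE; adjusted p = 0.74). It has a near-identical copy elsewhere in the genome. A count over the whole gene and the whole lung does not separate the cells that carry Cre, so it neither checks nor contradicts the labels. None of the 30 genes of RhoA, its regulators and its effectors passed the test (median log2 fold change 0.04, from -0.46 to 0.72). The effector kinase gene *Rock1* had a log2 fold change of -0.03 ± 0.11 and *Rock2* of 0.22 ± 0.14. With CKO_CRE replicate 2 left out, 8 of the 30 were called higher and 4 lower, against 15.9% and 12.6% of all genes in that fit. *Rock2* was among them (0.37, adjusted p = 0.020), and *Rock1* was not (0.09).

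Of 17473 tested genes, 156 (0.893%) differed between the genotypes under CRE at an adjusted p below 0.05, 91 (0.521%) higher and 65 (0.372%) lower in CKO_CRE, and 91 of the 156 by at least 2-fold. All 156 had no overlap between the 3 and 3 libraries, which 15.1% of all tested genes also showed. The median log2 fold change over all tested genes was 0.01. Without CKO_CRE replicate 2 the test called 5110 genes (28.5%), 2844 higher (15.9%) and 2266 lower (12.6%), and these included all 156. Whichever library was left out, 30 genes kept their call, 18 higher and 12 lower, and the calls of the remaining 126 ended without at least 1 library. A fit to the 6 CRE libraries alone kept 24 of the 156 calls. Under PBS, in libraries that share none with these, 21 genes (0.12%) differed between the genotypes. The gene lists were chosen with earlier results of these data known. A count of called list members beside the share of all genes is thus not a test of the list. The volcano plot shows the calls under CRE.

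**Figure D1:**
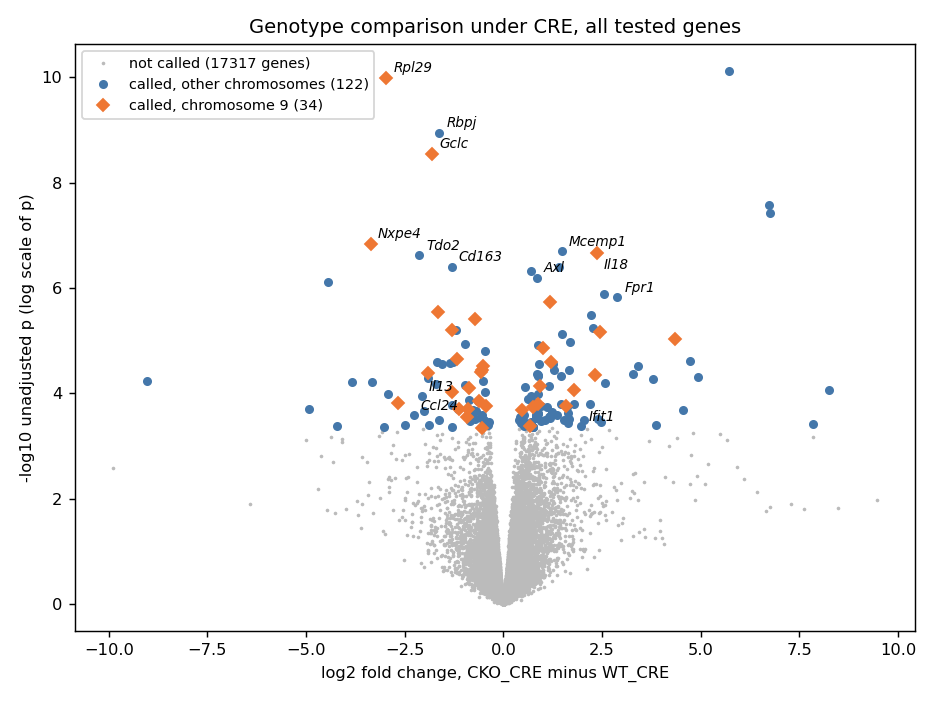
Each point is a gene, with its log2 fold change between CKO_CRE and WT_CRE (x axis) and the -log10 of its unadjusted p (y axis). Orange diamonds are the 34 called genes on chromosome 9, blue circles the 122 called genes elsewhere, and grey points the genes not called. *Rpl29*, *Rbpj* and *Gclc* have among the smallest p-values.

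Type 2 cytokines and the eotaxins they induce were lower in the knockout libraries, although few passed the test. Of 22 tested genes for type 2 cytokines, chemokines and their receptors, 3 fell and none rose, and the median log2 fold change was -0.89, against 0.01 over all genes. *Il13* (GRCm38 chr11:53631324-53634702), the cytokine that drives mucus production and airway hyperreactivity, stood at 12.3, 16.3 and 10.1 CPM in WT_CRE, against 2.76, 4.27 and 2.18 CPM in CKO_CRE. Every knockout library was below every control, though above the 0.185 CPM that no PBS library exceeded. It fell by 2.07 ± 0.37 on the log2 scale (adjusted p = 0.026).

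*Ccl24* (chr5:135569937-135573049), eotaxin-2, a chemokine that macrophages secrete to attract eosinophils, stood at 671, 612 and 415 CPM in WT_CRE. It was 67.8, 217 and 66.4 CPM in CKO_CRE, with replicate 2 the highest of the 3, and fell by 2.27 ± 0.42 (adjusted p = 0.041). *Il1rl1*, which encodes the IL-33 receptor ST2, went from 39.4, 43.7 and 31.7 CPM to 13.3, 19.3 and 13.6 CPM and fell by 1.31 ± 0.25 (adjusted p = 0.033). The receptor is carried by type 2 innate lymphoid cells, type 2 helper T cells and mast cells. In whole lung, fewer cells of a type and less RNA per cell cannot be told apart.

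Most of the cytokine and alarmin genes around them were also lower, without a call. *Il4* stood at 4.04, 4.92 and 2.83 CPM in WT_CRE against 2.28, 2.05 and 1.41 CPM in CKO_CRE (log2 fold change -1.04 ± 0.33, adjusted p = 0.15). *Il5*, the growth factor of eosinophils, was near the detection limit and its ranges overlapped (0.656 to 1.77 against 0.176 to 0.901 CPM). The alarmin *Il33* had 907, 783 and 915 CPM against 583, 606 and 429 CPM, with no overlap (-0.69 ± 0.17, adjusted p = 0.083). *Tslp*, another epithelial alarmin, had a log2 fold change of 0.57 ± 0.35 (adjusted p = 0.40), so the alarmins did not all lean one way. The eotaxin *Ccl11* had 177, 166 and 141 CPM against 84.2, 105 and 79.8 CPM (-0.85 ± 0.19, adjusted p = 0.062).

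Over the list, 11 genes had no overlap with every knockout library lower (7.69% of all genes did), and none with every knockout library higher. Without CKO_CRE replicate 2, 13 of the 22 fell (12.6% of all genes fell) and the median was -1.09. The call of *Il13* ended without WT_PBS replicates 1 or 2, any WT_CRE library or CKO_CRE replicate 3 (adjusted p up to 0.10). That of *Il1rl1* ended without any WT library or CKO_CRE replicates 1 or 3 (up to 0.14), and that of *Ccl24* without any library other than CKO_PBS replicate 1 and CKO_CRE replicate 2 (up to 0.15). In the fit to the 6 CRE libraries alone the calls of *Il13* and *Ccl24* ended as well (adjusted p = 0.079 and 0.22). Of 9 eosinophil genes none passed. The granule protein gene *Prg2* had 23.5, 35.6 and 21.0 CPM in WT_CRE, against 6.19, 25.2 and 6.70 CPM in CKO_CRE, where replicate 2 lay within the control range. Markers of mast cells and basophils (11 tested, median -0.18) and of T cells (17 tested, median -0.50, summed level 379 to 421 CPM against 187 to 378 CPM) also had no called member, and their part in the type 2 values was not tested.

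**Figure D2:**
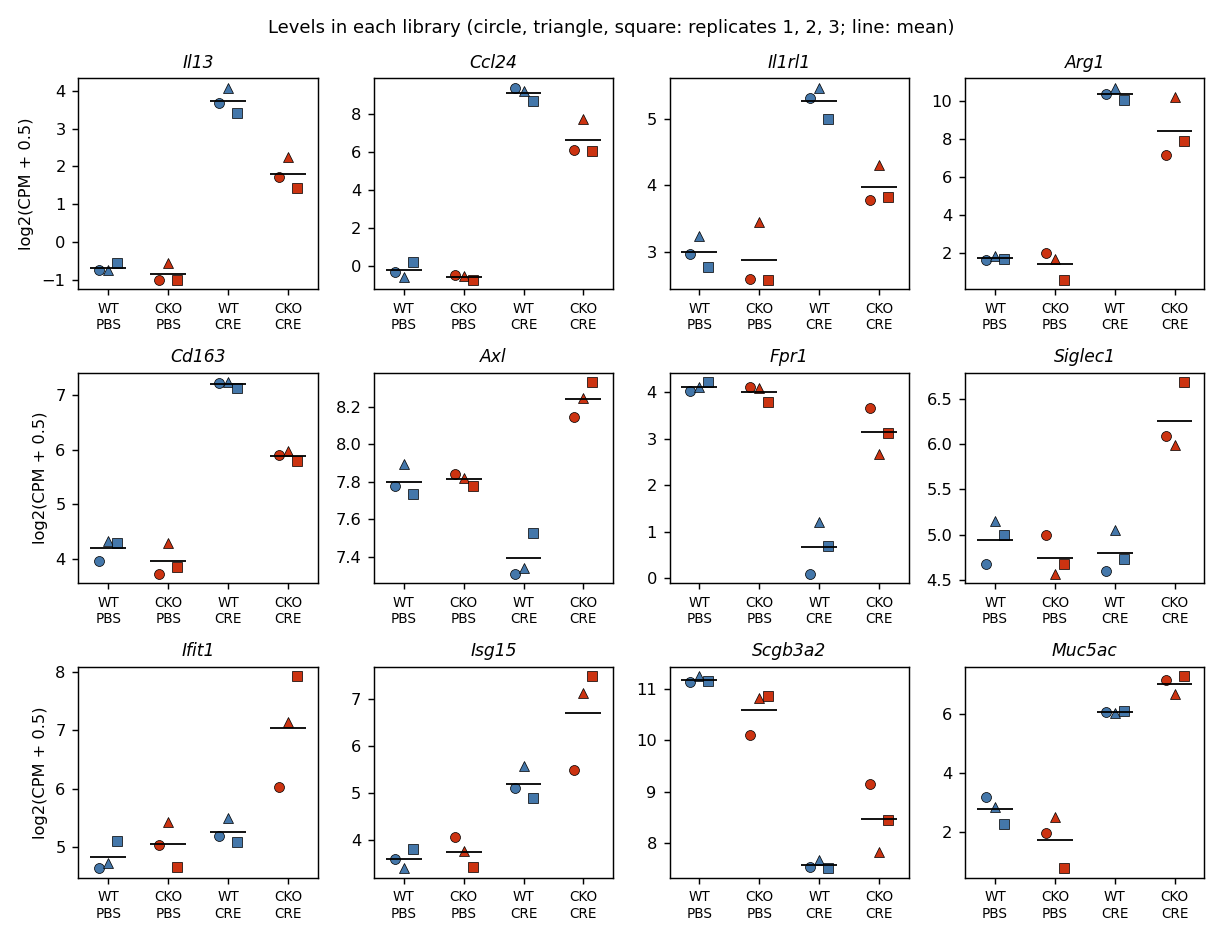
Levels of 12 genes in all 12 libraries as log2(CPM + 0.5) (y axis), by genotype and treatment (x axis), with circles, triangles and squares for replicates 1, 2 and 3 and a line at the mean. *Il13*, *Ccl24* and *Il1rl1* are lower in every CKO_CRE library than in every WT_CRE library, whereas the CKO_CRE triangle of *Arg1* lies within the WT_CRE range.

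Alternative activation genes of macrophages held a single call. Of 17 tested, 1 fell and none rose, with a median log2 fold change of -0.48. The called gene was *Tfrc*, the transferrin receptor, at 226, 224 and 222 CPM against 155, 182 and 145 CPM (-0.48 ± 0.10, adjusted p = 0.043). Its call ended without any library other than CKO_CRE replicate 2 (adjusted p up to 0.18). *Arg1*, the arginase that marks this state, showed how far the knockout libraries differed among themselves. It had 1340, 1637 and 1038 CPM in WT_CRE, against 140, 1185 and 240 CPM in CKO_CRE (-1.36 ± 0.66, adjusted p = 0.29), and without CKO_CRE replicate 2 it fell by 2.81 (adjusted p = 0.0012). *Chil3*, a chitinase-like protein, had overlapping ranges, 8457 to 10106 CPM in WT_CRE, against 7809 to 9956 CPM in CKO_CRE (-0.09 ± 0.15). The list had 10 falls and 1 rise without CKO_CRE replicate 2, where 12.6% of all genes fell and 15.9% rose.

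Interstitial macrophage genes split. *Cd163* (GRCm38 chr6:124304656-124330527), the scavenger receptor for haptoglobin and haemoglobin complexes found on tissue-resident macrophages, stood at 150, 151 and 140 CPM in WT_CRE, against 59.7, 62.5 and 55.1 CPM in CKO_CRE. All 3 knockout libraries, replicate 2 included, lay close together, between the controls and the PBS libraries (12.7 to 19.5 CPM). It fell by 1.31 ± 0.14 (adjusted p = 0.00058), a call that held whichever library was left out. *Maf*, a transcription factor of resident macrophages, fell by 0.50 ± 0.08 (85.7, 91.3 and 97.1 against 63.0, 60.7 and 69.6 CPM, adjusted p = 0.018).

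Another pair of genes in that list rose. *Cx3cr1*, the fractalkine receptor of monocytes and of the macrophages derived from them, went from 10.3, 14.4 and 15.5 CPM to 30.2, 27.5 and 36.2 CPM (1.22 ± 0.19, adjusted p = 0.012). It lies on chromosome 9, 11.6 Mb from *Rhoa*, overlaps a gene on the opposite strand, and is also the only called gene among 14 for monocytes and their recruitment. *Tmem119* rose by 0.87 ± 0.17 (adjusted p = 0.039). The complement genes *C1qa*, *C1qb* and *C1qc*, the defining markers of the list, were not called. *C1qa* had 589, 535 and 537 CPM in WT_CRE, against 245, 593 and 360 CPM in CKO_CRE (-0.47 ± 0.27, adjusted p = 0.36), and without CKO_CRE replicate 2 it fell by 0.87 (adjusted p = 0.015).

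Of the 19 interstitial macrophage genes tested, 2 rose and 2 fell (median -0.37), where 0.521% of all genes rose and 0.372% fell. Without CKO_CRE replicate 2, 2 rose, a share below the 15.9% of all genes, and 11 fell, where 12.6% of all genes did. The call of *Cx3cr1* ended without WT_CRE replicate 1 (adjusted p = 0.058). That of *Maf* ended without any WT_CRE library (up to 0.080) and that of *Tmem119* without any library other than CKO_CRE replicates 1 and 2 (up to 0.15).

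Among 19 alveolar macrophage genes, which mark the resident phagocytes of the air spaces, 5 rose and 1 fell (0.521% and 0.372% of all genes). Of the 5, *Il18* and *Plet1* lie on chromosome 9, where 14 of 978 tested genes rose. The list was more mixed without CKO_CRE replicate 2, with 8 rises and 5 falls (15.9% and 12.6% of all genes). *Il18* (chr9:50554827-50581840), a cytokine of the IL-1 family released by inflammasomes, stood at 2.65, 1.75 and 3.32 CPM in WT_CRE, against 16.5, 9.82 and 13.5 CPM in CKO_CRE (2.36 ± 0.23, adjusted p = 0.00042). It was also higher in the knockout under PBS (11.1 to 11.8 against 20.7 to 25.1 CPM), with a log2 difference of 1.03 that was not called there. *Plet1*, also on chromosome 9, rose by 1.19 ± 0.14 (27.4, 31.8 and 36.2 against 89.3, 59.0 and 69.7 CPM, adjusted p = 0.0018). Its log2 difference under PBS was -0.16. Both calls held whichever library was left out, but in the 6 CRE libraries alone only that of *Il18* did (*Plet1* adjusted p = 0.084). *Plet1* overlaps the opposite-strand gene *Plet1os*, and reads of the pair cannot be told apart without strand.

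*Krt79* went from 4.23, 9.4 and 1.93 CPM to 76.1, 26.7 and 49.5 CPM (3.29 ± 0.49, adjusted p = 0.015). *Fabp1* and *Cidec*, which bind fatty acids and coat lipid droplets, rose by 3.80 ± 0.63 and 2.39 ± 0.47 (adjusted p = 0.016 and 0.043). *Fabp1* was close to detection in the controls, at 0.0535 to 0.164 CPM, and reached 0.823 to 1.92 CPM in CKO_CRE. Every PBS library held more *Fabp1* and *Cidec* than any CRE library (at least 3.69 and 16.2 CPM), so CKO_CRE lay between WT_CRE and PBS.

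*Slc7a2*, an arginine transporter, fell by 0.72 ± 0.15 (475, 421 and 368 against 234, 323 and 208 CPM, adjusted p = 0.043). Defining markers without a call were the scavenger receptor *Marco* (2.40, 4.86 and 1.39 against 29.3, 5.14 and 8.47 CPM, 2.30 ± 0.65, adjusted p = 0.13) and *Pparg* (-0.20 ± 0.19). The summed level of the list was 10185 to 12045 CPM in WT_CRE, against 9270.3 to 12064 CPM in CKO_CRE, with overlapping ranges, and its median log2 fold change was -0.08. *Krt79* lost its call without WT_CRE replicate 1 (adjusted p = 0.086), and *Fabp1* without WT_CRE replicates 1 or 3 (up to 0.095). *Cidec* and *Slc7a2* lost theirs without any library other than CKO_CRE replicate 2 (up to 0.14 and 0.20). A fit to the 6 CRE libraries alone ended the calls of *Krt79*, *Fabp1* and *Cidec* (adjusted p = 0.15, 0.092 and 0.30).

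*Axl* (chr7:25757273-25788705), a receptor tyrosine kinase that clears dying cells and restrains interferon signalling, stood at 158, 161 and 184 CPM in WT_CRE, against 283, 304 and 322 CPM in CKO_CRE (0.85 ± 0.09, adjusted p = 0.00079). In the PBS libraries of both genotypes it lay between them, at 212 to 238 CPM. It was the only called gene of 20 for efferocytosis and the macrophage lysosome, whose median was -0.13. Without CKO_CRE replicate 2 this list had 4 rises and 9 falls (15.9% and 12.6% of all genes) and a median of -0.53. Its relative *Mertk* had a log2 fold change of 0.12 ± 0.14.

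*Fpr1* (chr17:17876471-17883940) and *Fpr2*, the formyl peptide receptors that guide phagocytes to bacteria and damaged mitochondria, rose by 2.88 ± 0.34 and 2.27 ± 0.30 (adjusted p = 0.0016 and 0.0046). *Fpr1* had 0.568, 1.80 and 1.12 CPM in WT_CRE, against 12.2, 5.84 and 8.17 CPM in CKO_CRE, and lay at 13.4 to 18.1 CPM under PBS. *Fpr2* had 3.34, 6.61 and 2.51 against 20.6, 16.8 and 22.7 CPM, and overlaps *Fpr3* on the same strand. The activating receptor gene *Lilra5* went from 1.77, 1.48 and 2.25 CPM to 14.4, 5.90 and 12.1 CPM (2.55 ± 0.29, adjusted p = 0.0015) and the orphan receptor gene *Gpr141* from 1.20, 1.48 and 1.02 CPM to 5.89, 3.97 and 7.41 CPM (2.22 ± 0.28, adjusted p = 0.0029). These calls, and that of *Axl*, held whichever library was left out. With the 6 CRE libraries alone all 5 ended, at an adjusted p of 0.058 for *Axl*, 0.074 for *Lilra5*, 0.073 for *Gpr141* and 0.091 for both *Fpr1* and *Fpr2*.

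Neutrophils also express *Fpr1* and *Fpr2*. None of 16 tested neutrophil genes passed, the median was -0.25, and the summed level was 422 to 689 CPM in WT_CRE, against 273 to 643 CPM in CKO_CRE.

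Further macrophage genes that passed the test, chosen here after their values were seen, included *Siglec1* (CD169, 23.7, 32.7 and 26.1 against 67.8, 63.0 and 102 CPM, 1.5 ± 0.20, adjusted p = 0.0051) and *Mcemp1* (11.4, 17.8 and 13.4 against 36.4, 44.1 and 38.7 CPM, 1.48 ± 0.14, adjusted p = 0.00042). Both held whichever library was left out, and that of *Siglec1* ended with the 6 CRE libraries alone (0.074). *Mpeg1*, which encodes the pore-forming perforin-2, rose by 0.91 ± 0.14 (adjusted p = 0.012), a call that ended without WT_CRE replicate 1 (0.081). *Rnase2a*, an eosinophil-associated ribonuclease, fell by 1.36 ± 0.21 (301, 195 and 235 against 90.7, 114 and 79.3 CPM, adjusted p = 0.012) and was at most 0.303 CPM under PBS. Its call ended without WT_CRE replicate 1 or CKO_CRE replicate 3 (up to 0.059).

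Genes of the type I interferon response were higher in CKO_CRE as a set of values, by amounts that differed widely between its libraries. Such genes encode sensors and effectors of antiviral defence and are switched on together by interferon. All 26 tested genes had a positive log2 fold change (0.40 to 2.19, median 1.48, against 0.01 over all genes), and 7 passed the test, all higher (0.521% of all genes were). In 18 of the 26 every knockout library was above every control (7.37% of all genes). The same genes under PBS are shown in the plot of levels for *Ifit1* and *Isg15*.

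*Ifit1* (chr19:34640871-34650009), which binds foreign RNA ends and blocks their translation, stood at 36.0, 44.6 and 33.5 CPM in WT_CRE, against 65.2, 142 and 242 CPM in CKO_CRE. Replicate 3 was the highest knockout library and replicate 1 the closest to the controls (1.98 ± 0.39, adjusted p = 0.049). *Ifit3b* had 11, 16.4 and 10.9 against 26.3, 50.8 and 97.7 CPM (2.19 ± 0.39, adjusted p = 0.033), and *Cmpk2* had 27.2, 25.0 and 22.4 against 40.2, 52.2 and 98.9 CPM (1.36 ± 0.26, adjusted p = 0.041). The RNA sensor *Ifih1* (MDA5) rose by 1.10 ± 0.21 (adjusted p = 0.034).

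The order of the knockout libraries was shared by the list. The median over the 26 genes of log2(CPM + 0.5), less the WT_CRE mean, was 0.36 in replicate 1, 1.46 in replicate 2 and 2.09 in replicate 3. *Isg15*, an interferon-induced modifier, had 33.6, 47.1 and 29.0 CPM against 43.9, 139 and 178 CPM. Replicate 1 thus lay within the control range, and the gene was not called (1.72 ± 0.41, adjusted p = 0.081). The chemokine *Cxcl10* had 23.4, 27.8 and 11.4 against 13.8, 57.2 and 52.7 CPM (0.99 ± 0.46, adjusted p = 0.28). Of 19 genes of the interferon gamma response none passed, and their median was 0.31.

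The 7 interferon calls, *Ifit1*, *Ifit2*, *Ifit3b*, *Cmpk2*, *Xaf1*, *Ddx58* and *Ifih1*, had adjusted p between 0.033 and 0.049. Each ended without any 1 of the 6 WT libraries, all but that of *Ifit3b* also without CKO_PBS replicate 3, and those of *Ifit1*, *Ifit2*, *Xaf1*, *Ddx58* and *Cmpk2* without any CKO_PBS library. *Ifit1*, *Ifit2*, *Xaf1* and *Ddx58* further lost theirs without CKO_CRE replicate 3, and over all 7 the adjusted p reached 0.21. The call of *Ifit3b* also ended with the 6 CRE libraries alone (adjusted p = 0.20). In a fit without CKO_CRE replicate 2, 18 of the 26 rose (15.9% of all genes rose) and the median was 1.51. Over all fits that left out 1 library, the number called higher ran from 0 to 25 of the 26. The median ran from 1.02 to 1.82. *Ifit3b* is 97.8% identical to *Ifit3* over 1700 transcript bases (*Ifit3* log2 fold change 1.97, adjusted p = 0.058), so reads can be shared between them.

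The regulatory sequence next to these genes is shown because all 26 genes of the list had a positive log2 fold change, 7 of them past the test. Promoter windows from RefSeq (GRCm38.p6) were searched on both strands for GAAA followed, after any 2 bases, by GAAA again, a core of the interferon-stimulated response element, in the 250 bases before and 50 after each start. Of the tested genes with a window, 485 of 12434 (3.90%) held it, as did 12 of the 19 interferon genes with a window (63.2%) and 4 of the 7 called. The 250 bases before the start of *Ifit1* (chr19:34640639-34640888, plus strand) and of *Ifit3b* (chr19:34607707-34607956, plus strand) each hold 2 matches, in capitals, which read as the reverse complement on the strand printed:
Ifit1: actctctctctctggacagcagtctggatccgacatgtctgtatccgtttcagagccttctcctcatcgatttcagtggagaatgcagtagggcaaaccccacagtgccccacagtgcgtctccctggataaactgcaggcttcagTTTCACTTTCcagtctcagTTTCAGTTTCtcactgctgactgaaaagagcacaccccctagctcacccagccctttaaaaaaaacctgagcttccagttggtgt
Ifit3b: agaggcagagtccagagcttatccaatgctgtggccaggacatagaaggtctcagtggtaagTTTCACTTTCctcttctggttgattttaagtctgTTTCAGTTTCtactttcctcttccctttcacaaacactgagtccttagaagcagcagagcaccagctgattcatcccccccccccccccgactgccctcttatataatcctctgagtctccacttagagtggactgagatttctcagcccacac

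In *Ifit1* the matches begin 104 and 85 bases before the start, and in *Ifit3b* 188 and 154 bases before it. *Ddx58* and *Ifih1* hold 1 match each after the start, and *Ifit2*, *Cmpk2* and *Xaf1* held none in their windows. A match is only a run of letters.

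The lists for the airway and alveolar epithelium held no called gene. Of 20 club cell genes none passed, although the median log2 fold change was 0.58. *Scgb1a1*, which the Cre driver follows, had 8.64, 9.73 and 6.52 CPM in WT_CRE, against 20.2, 5.90 and 10.9 CPM in CKO_CRE (0.57 ± 0.38, adjusted p = 0.42). *Scgb3a2*, another secretoglobin, had 184, 203 and 183 against 565, 228 and 348 CPM, with no overlap (1.00 ± 0.28, adjusted p = 0.11). The mean of *Scgb3a2* under PBS was 2318 CPM in WT_PBS and 1588 CPM in CKO_PBS, far above both CRE groups.

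*Cyp2f2*, the club cell cytochrome P450, had 131, 117 and 119 CPM against 264, 105 and 242 CPM, and here replicate 2 was the lowest library of all 6. The list of P450 and other xenobiotic enzymes behaved alike, with no call, a median of 0.67 and library medians of 0.85, -0.18 and 0.83 above or below the controls. Without CKO_CRE replicate 2, 9 of 20 club cell genes and 12 of 15 xenobiotic enzymes rose, and none fell (15.9% of all genes rose). For ciliated cells this count was 10 of 19, with *Tppp3* at 0.55 (adjusted p = 0.0068).

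The barrier genes leaned upwards by small amounts. Of 20 tight junction genes none passed (median 0.27), and none of 15 of adherens junctions and desmosomes did (median 0.14). *Cldn18*, the main claudin of the alveolus, stood at 387, 421 and 465 CPM in WT_CRE, against 550, 531 and 668 CPM in CKO_CRE, with no overlap (0.46 ± 0.12, adjusted p = 0.094). It lies on chromosome 9, at -8.62 Mb from *Rhoa*, and its log2 difference under PBS was -0.005. *Tjp1*, the scaffold protein ZO-1, had 190, 178 and 237 against 310, 193 and 304 CPM (0.42 ± 0.17, adjusted p = 0.23), and *Cdh1*, E-cadherin, had 380, 371 and 379 against 398, 462 and 383 CPM (0.14 ± 0.10, adjusted p = 0.45). With CKO_CRE replicate 2 left out, 8 tight junction genes rose (15.9% of all genes did) and 1 fell (12.6%). For adherens junctions and desmosomes these counts were 7 and 1.

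For type 1 alveolar cells, the flat cells of gas exchange, all 14 genes had a log2 fold change above 0 (0.09 to 0.92, median 0.59), 7 with no overlap (7.37% of all genes), and none passed. The closest was *Aqp5*, a water channel, at 157, 177 and 170 against 216, 221 and 228 CPM (0.40 ± 0.08, adjusted p = 0.051). Leaving out CKO_CRE replicate 2, 12 of the 14 rose, against 15.9% of all genes. Endothelial genes (20 tested, median 0.11) and surfactant genes (16 tested, median 0.09) had no call. In the fit without that library 9 endothelial genes rose, and 8 surfactant genes rose and 1 fell.

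Cardiac muscle genes, which in lung come from the sleeves of the pulmonary veins and any attached heart tissue, moved with the epithelial values. None of 12 was called, their median was 0.70, and their summed level was 210 to 235 CPM in WT_CRE, against 392, 242 and 449 CPM in CKO_CRE. The defining gene *Myh6* had 73.8, 62.6 and 80.9 against 139, 80.5 and 178 CPM. Adipose genes (5 tested) summed to 5.83 to 13.3 CPM in WT_CRE, against 14 to 14.2 CPM in CKO_CRE. The part of such tissue in the epithelial values was not tested.

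Goblet cell genes gave a mixed picture, with no call among 18 and a median of -0.33. *Muc5ac*, the gel-forming mucin of goblet cells, was the highest of them by fold. It stood at 67.2, 65.2 and 69.1 CPM in WT_CRE, against 143, 103 and 156 CPM in CKO_CRE, with no overlap (0.99 ± 0.31, adjusted p = 0.15). *Muc5b* had a log2 fold change of -0.01 ± 0.37 and *Spdef*, the transcription factor of goblet cells, of -0.33 ± 0.25. In 7 of the 18 genes every knockout library was below every control (7.69% of all genes).

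**Figure D3:**
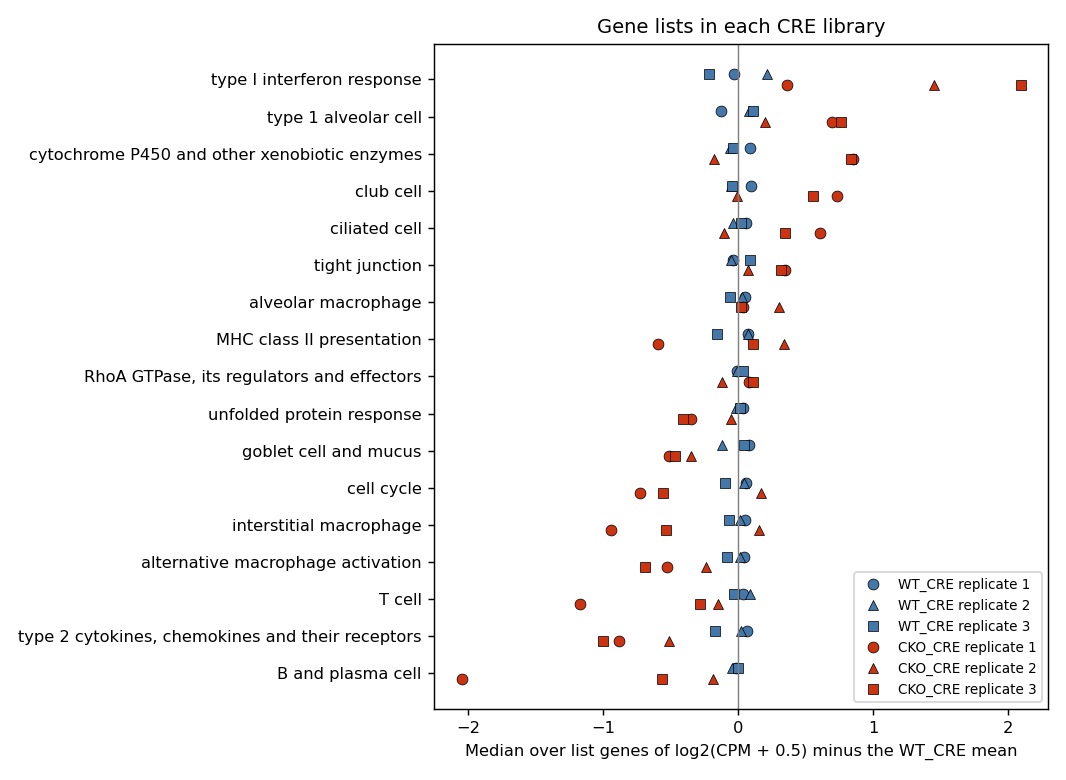
For each gene list (y axis) and each CRE library, the median over the list's genes of log2(CPM + 0.5) minus the WT_CRE mean (x axis), blue for WT_CRE and red for CKO_CRE, with circles, triangles and squares for replicates 1, 2 and 3. The red triangle (CKO_CRE replicate 2) sits near the blue symbols for club cell, P450, ciliated and cell cycle genes, but lies apart from them for interferon (1.46) and type 2 genes (-0.52).

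B and plasma cell genes were lowest in CKO_CRE replicate 1. None of 23 passed (median -0.90), and the library medians were -2.04, -0.19 and -0.56. When CKO_CRE replicate 2 was left out, 10 of the 23 fell (12.6% of all genes) and the median was -1.31. Immunoglobulin genes took 0.471% to 0.677% of counts in WT_CRE and 0.107%, 0.506% and 0.475% in CKO_CRE. Of 164 tested immunoglobulin segments, 7 were called lower and 2 higher (0.372% and 0.521% of all genes), with a median of -1.07. *Ighv5-9-1*, a heavy chain variable segment, had 9.84, 3.88 and 7.17 CPM against 0.180, 0.292 and 0.470 CPM (-4.43 ± 0.49, adjusted p = 0.00089). Similar segments can exchange reads, since its closest relative matches it at over 90% identity.

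Extracellular matrix and complement held 3 more falls. *Col1a1* and *Col1a2*, the chains of type I collagen, fell by 0.57 ± 0.12 and 0.53 ± 0.11 (adjusted p = 0.042 and 0.041) among 17 fibroblast and matrix genes. *Col1a1* had 2083, 1913 and 1768 CPM against 1377, 1286 and 1211 CPM, and 591 to 766 CPM under PBS, so the knockout lay between. Leaving out any library other than CKO_PBS replicate 1 and CKO_CRE replicates 1 and 2 ended both calls (adjusted p up to 0.20). *Col3a1* had a log2 fold change of -0.44 ± 0.13 (adjusted p = 0.12).

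*Cfi*, the serine protease that inactivates C3b, fell by 1.28 ± 0.20 (18.5, 15.4 and 15.7 against 6.91, 8.53 and 5.00 CPM, adjusted p = 0.012), the only call among 14 complement genes, and lost its call without WT_CRE replicate 1 (0.072). *Mmp12*, the macrophage elastase, had 1014, 1004 and 1080 CPM against 216, 1715 and 293 CPM (-0.48 ± 0.65, adjusted p = 0.70). CKO_CRE replicate 2 was above every control while replicates 1 and 3 were far below, and without replicate 2 it fell by 2.02 (adjusted p = 0.0017).

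Proliferation and endoplasmic reticulum stress genes were not called. All 20 cell cycle genes had a negative log2 fold change (median -0.32), but the library medians were -0.73, 0.17 and -0.55, so replicate 2 lay above the controls. *Mki67* had 180, 157 and 173 against 114, 174 and 121 CPM. All 15 genes of the unfolded protein response were also negative (median -0.31). Without CKO_CRE replicate 2, 17 of 20 and 10 of 15 fell (12.6% of all genes fell).

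*Tdo2*, the tryptophan 2,3-dioxygenase that starts tryptophan breakdown to kynurenine, was among the sharpest falls outside chromosome 9. It had 29.4, 27.1 and 23.7 CPM in WT_CRE, against 5.65, 7.71 and 4.82 CPM in CKO_CRE (-2.14 ± 0.21, adjusted p = 0.00042) and 1.66 to 2.95 CPM under PBS, and the call held whichever library was left out. *Rbp4*, the retinol carrier, fell by 1.71 ± 0.28 (83.3, 59.0 and 62.3 against 13.9, 33.7 and 14.9 CPM, adjusted p = 0.019). Its call ended without WT_CRE replicates 1 or 3 or CKO_CRE replicate 3 (up to 0.086). *Selenbp2*, a selenium-binding protein gene, rose from 0.568, 0.492 and 0.267 CPM to 12.9, 3.86 and 14.8 CPM (4.57 ± 0.84, adjusted p = 0.036). It has a near-identical copy, *Selenbp1*, and its PBS knockout libraries ranged from 2.07 to 17.5 CPM. Its call ended without any WT library, CKO_PBS replicate 3 or CKO_CRE replicates 1 or 3 (up to 0.16).

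Further large falls were in genes of low level. *Msx3*, a homeobox gene, went from 22.4, 20.2 and 9.68 CPM to 3.30, 6.54 and 3.06 CPM (-2.01 ± 0.36, adjusted p = 0.037) and was at most 0.101 CPM under PBS. *Nsun7* and *Avpr1a*, the vasopressin V1a receptor gene, had at most 3.48 and 1.83 CPM in any CRE library and fell by 1.92 ± 0.32 and 1.89 ± 0.40 (adjusted p = 0.016 and 0.049). *Junos*, at 5.96 to 10.5 CPM against 2.18 to 3.00 CPM (-1.69 ± 0.26, adjusted p = 0.012), overlaps *Jun* on the opposite strand, and reads of the pair cannot be told apart. These 4 calls ended without WT_CRE replicate 1, those of *Nsun7* and *Avpr1a* also without WT_CRE replicate 3, those of *Msx3*, *Avpr1a* and *Junos* without CKO_CRE replicate 3, and those of *Msx3* and *Avpr1a* without WT_CRE replicate 2 or any WT_PBS library. *Avpr1a* further lost its call without any CKO_PBS library and *Msx3* without CKO_CRE replicate 1 (adjusted p up to 0.19 over the 4). The calls of *Msx3* and *Nsun7* also ended with the 6 CRE libraries alone (adjusted p = 0.20 and 0.14).

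Calls were dense on chromosome 9, which carries *Rhoa*. There 34 of 978 tested genes were called (3.48%, 14 higher and 20 lower), against 122 of 16495 elsewhere (0.740%), so a chromosome with 5.6% of tested genes gave 21.8% of the calls. The share was 9 of 154 genes within 5 Mb of the start of *Rhoa*, 5 of 212 at 5 to 20 Mb, 8 of 200 at 20 to 50 Mb and 12 of 412 farther away. The called genes lay between -65.0 and 11.6 Mb from that start, the nearest at 0.768 Mb. Below -65.0 Mb no gene was called, although tested genes reached -105 Mb (*Alkbh8*). The labels do not give the strains.

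*Rpl29* (ENSMUSG00000048758, chr9:106429454-106431568), a ribosomal protein gene at -1.88 Mb from *Rhoa*, stood at 370, 361 and 344 CPM in WT_CRE, against 35.1, 55.5 and 46.4 CPM in CKO_CRE, with no library between (-2.97 ± 0.15, adjusted p = 9.0e-07). Under PBS it was 205 to 241 CPM in WT and 32.8 to 39.5 CPM in the knockout, the same direction. *Gclc* (chr9:77754535-77794485), the catalytic subunit of the enzyme that limits glutathione synthesis, had 665, 581 and 598 against 208, 172 and 146 CPM (-1.81 ± 0.12, adjusted p = 1.2e-05) and under PBS 230 to 252 against 101 to 104 CPM. It was the only call among 14 genes of glutathione and the NRF2 response, of which 7 lay above 0 and 7 below. *Nxpe4* (chr9:48162023-48400025) had 20, 9.29 and 21.8 against 1.44, 1.64 and 1.88 CPM (-3.36 ± 0.32, adjusted p = 0.00036) and a log2 difference of -3.40 under PBS.

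Of the 34 chromosome 9 genes, 29 had the same sign under PBS, 9 were called there too, and the median size of the log2 difference was 1.14 under CRE and 0.88 under PBS. For the 122 genes elsewhere these values were 83, 5, 1.28 and 0.18. The 5 chromosome 9 genes with opposite signs were *Plet1* and *Cx3cr1* (above), *Dmxl2* (0.47 under CRE, -0.08 under PBS), *Ibtk* (-0.45 and 0.03), and *Dclk3*, a kinase gene at 0.0535 to 0.126 CPM in WT_CRE, against 2.88, 0.935 and 2.41 CPM in CKO_CRE (4.36 ± 0.61, adjusted p = 0.0061; log2 difference under PBS -0.16). *Dmxl2* and *Ibtk*, named after their values were seen, lost their calls without any WT_PBS library, CKO_PBS replicate 3, WT_CRE replicates 1 or 3 or CKO_CRE replicate 1, *Dmxl2* also without CKO_PBS replicates 1 or 2 and *Ibtk* without CKO_CRE replicate 3. The call of *Dclk3* held whichever library was left out but ended with the 6 CRE libraries alone (adjusted p = 0.074). *Col6a6*, a type VI collagen chain, rose by 2.45 ± 0.33 (1.01, 0.765 and 1.44 against 6.55, 5.14 and 6.0 CPM, adjusted p = 0.0048), with 1.22 under PBS.

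**Figure D4:**
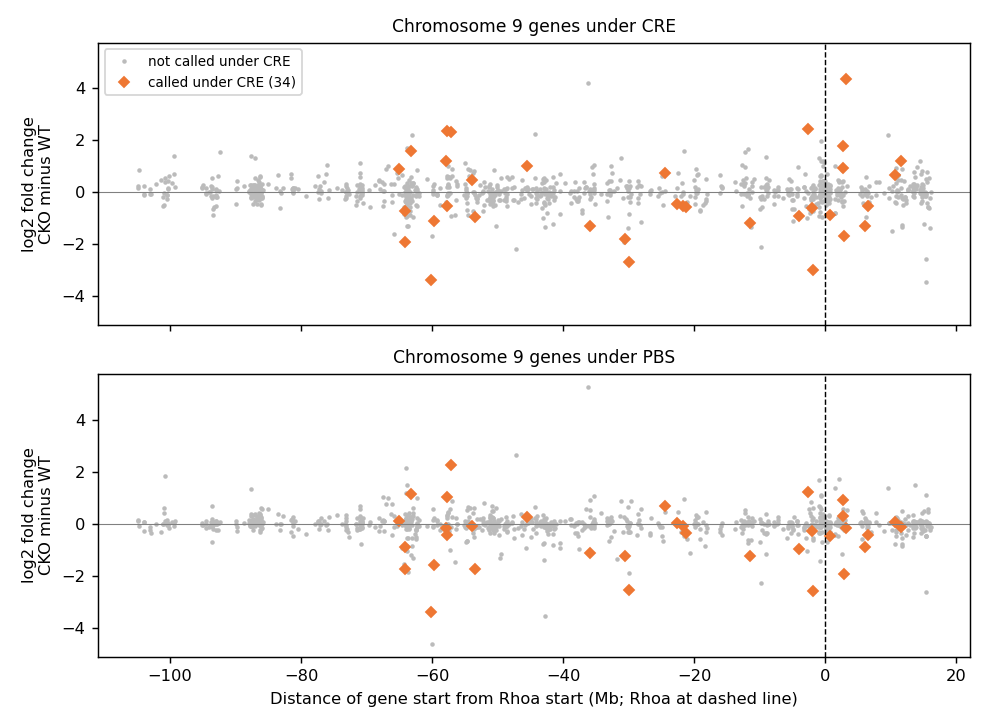
Log2 fold change between the genotypes (y axis) of each tested chromosome 9 gene against the distance of its start from that of *Rhoa* in Mb (x axis), under CRE (top) and PBS (bottom), with the 34 genes called under CRE as orange diamonds. The diamonds are spread from -65.0 to 11.6 Mb, with none below -65.0 Mb, although tested genes reach -105 Mb (*Alkbh8*). Most diamonds lie on the same side of 0 in both panels.

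Some of the largest fold changes belonged to pseudogenes whose parent gene fell. These were chosen after their values were seen. *Gm8210* on chromosome 1, 99.4% identical to *Rpl29* over 483 bases, had at most 0.109 CPM in WT_CRE, against 6.55, 7.77 and 6.06 CPM in CKO_CRE (adjusted p = 0.00011). *Gm11868* on chromosome 4, 97.98% identical to *Cyb5r4* over 1485 bases, had at most 0.189 CPM against 10.3, 11.9 and 10.3 CPM. *Cyb5r4*, on chromosome 9, fell by 0.56 ± 0.09 (adjusted p = 0.014). The call of *Cyb5r4* ended without WT_CRE replicate 1 or CKO_CRE replicate 3 (up to 0.080). Both pseudogenes showed the same under PBS, where their knockout libraries held 4.75 to 7.98 and 10 to 11.8 CPM.

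*Rbpj*, the transcription factor of Notch signalling, on chromosome 5, formed another such pair. It had 136, 128 and 140 CPM in WT_CRE, against 42.7, 41.4 and 47.2 CPM in CKO_CRE (-1.62 ± 0.10, adjusted p = 6.6e-06), while *Rbpj-ps3* on chromosome 6, 99.7% identical over 1441 bases, went from 0.631, 0.109 and 0.321 CPM to 8.47, 8.65 and 10.8 CPM (4.73 ± 0.71, adjusted p = 0.012). Under PBS *Rbpj* had 88.1 to 91.3 against 57.9 to 76.4 CPM. Reads can be shared within such pairs, so the split between members is uncertain, and 13 of the 156 called genes have a copy of 98% identity or more. The pair of *Gm11868* and *Cyb5r4*, at 97.98%, falls just short of that mark. Among the 156, 26 overlap a gene on the opposite strand. The call of *Rbpj-ps3* ended without WT_CRE replicate 3 (0.066).

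**Figure D5:**
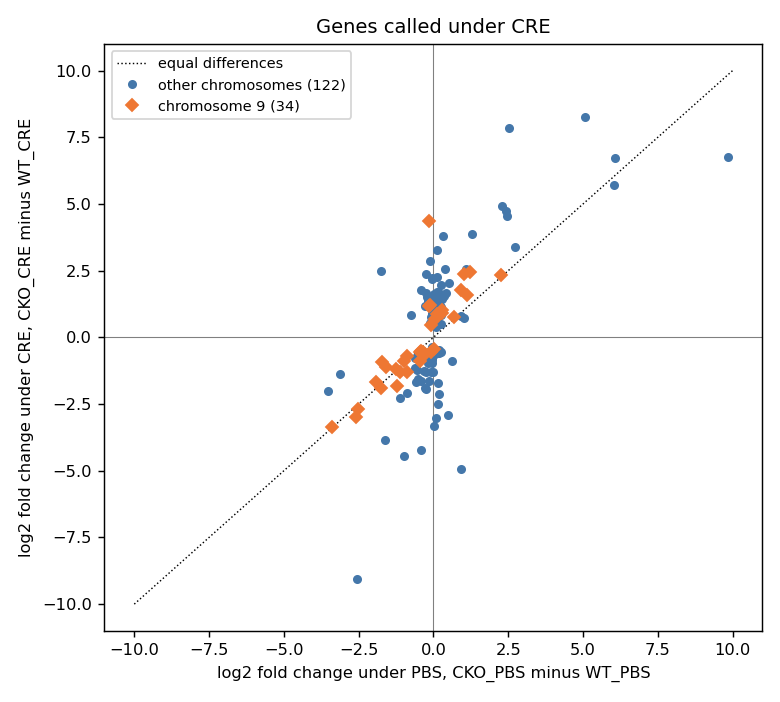
Log2 fold change between the genotypes under PBS (x axis) and under CRE (y axis) for the 156 genes called under CRE, with chromosome 9 genes as orange diamonds, other genes as blue circles and a dotted line at equal differences. Chromosome 9 genes follow the dotted line more closely in median size (1.14 and 0.88) than the others (1.28 and 0.18), which crowd near 0 on the x axis.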

How the data were processed

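RNA of whole lung was sequenced in 12 libraries (4 groups of 3, in a single labelled batch). Reads were trimmed with fastp and aligned with STAR to mm10, per the submitters' processing notes. For the counting tool, its strand setting and its annotation, the sources used here give no name. The authors deposited raw counts per Ensembl gene (54532 IDs, of which 54495 matched GENCODE M21; the rest held at most 0.0064% of a library). Groups were taken from the sample titles.

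The 17473 genes passing filterByExpr went into robust quasi-likelihood tests of edgeR 4.0.16 (R 4.3.3), TMM-scaled, over all 12 libraries, sharing 1 estimate of spread (biological coefficient of variation 17.4%). Genotype differences under CRE, under PBS and their difference were contrasts. P-values were adjusted by Benjamini-Hochberg over all tested genes, and a call is an adjusted p below 0.05. Standard errors were derived from the fold change and its F statistic. The steps were tested on simulated counts for this comparison: of 200 genes changed among 17473, 19% were recovered at 1.5-fold, 61% at 2-fold and 85% at 4-fold. False calls made up 7.3%, 3.2% and 4.5% of the calls. The simulation gave all libraries of a gene the same spread and held no library unlike its group, as CKO_CRE replicate 2 was. These rates may therefore not hold for the real libraries. CPM values use TMM-scaled totals.

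The members and the 44 gene lists were chosen with earlier results of these data known. Named genes are the 12 largest called rises and 12 largest called falls (at least 1 CPM in the higher group, no overlap of libraries; predicted, ribosomal, sex-linked, pseudogene and antigen receptor segments left out), up to 3 called members per direction and the first 3 members of each list, a fixed set of pathway genes, and the top called genes of chromosome 9. Where a count of called list members is small, all are named. Near-identical copies (98% over 200 bases) were found with blastn 2.17.0 on transcripts. Alternatives were DESeq2 1.42.0 (size factors and Wald test), limma 3.58.1 voom with and without quality weights, no low-count filter, a replicate block, a sex term, non-robust fits, the 6 CRE libraries alone, genes outside chromosome 9, a 2-fold minimum and leaving out each library.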

Additional observations from a re-analysis of the deposited data

Results flagged for a closer look

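For 9 of 17473 genes (0.0515%) the genotype difference itself differed between CRE and PBS in edgeR's test of the difference (the log2 difference under CRE minus that under PBS, with its standard error), and 1791 did so at an unadjusted p below 0.05. These calls were fragile. All 9 held without CKO_CRE replicate 1 and without CKO_CRE replicate 2, but over the 12 fits that left out 1 library *Rbpj* kept its call in 5, *Tdo2*, *Mcemp1* and *Fpr1* in 3, and the other 5 genes in 2 (adjusted p up to 0.25). With a sex term *Rbpj* and *Mcemp1* kept theirs (adjusted p = 0.034 for both) and the rest did not, and voom without weights kept *Rbpj* alone (0.032). In 5 of them the knockout was higher under CRE and near equal under PBS. These were *Fpr1* (2.99 ± 0.43, adjusted p = 0.039), *Mcemp1* (1.45 ± 0.20, adjusted p = 0.039), *Plet1* (1.35 ± 0.20, adjusted p = 0.039), *Axl* (0.84 ± 0.13, adjusted p = 0.049) and *Klra2*, a receptor gene of the Ly49 family (1.44 ± 0.20, adjusted p = 0.039). *Klra2* had 5.80, 6.61 and 5.19 CPM in WT_CRE, 13.6, 18.6 and 14.8 CPM in CKO_CRE, and 9.51 to 10 CPM in the PBS libraries of both genotypes.

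The knockout was lower under CRE for *Rbpj* (-1.22 ± 0.14, adjusted p = 0.020), which was also lower under PBS by a smaller amount, and for *Tdo2* (-2.34 ± 0.32, adjusted p = 0.039), whose PBS libraries lay together. The split of reads between *Rbpj* and its pseudogene is uncertain.

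The remaining pair changed sides. *Slc16a11*, a monocarboxylate transporter gene, had a difference of 1.60 ± 0.23 (adjusted p = 0.039). It stood at 30.1, 35.2 and 30.0 CPM in WT_PBS, 22.6, 18.6 and 15.2 CPM in CKO_PBS, 9.4, 7.6 and 7.65 CPM in WT_CRE, against 16.5, 12.2 and 15.4 CPM in CKO_CRE. *Rgs4*, a regulator of G protein signalling, had a difference of -1.51 ± 0.23 (adjusted p = 0.049), with 10.1 to 12.8 against 16.6 to 19.0 CPM under PBS and 46.1 to 57.1 against 20.6 to 33.7 CPM under CRE.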

How the results depend on the processing

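The count of 156 calls (91 higher, 65 lower) became 838 (537, 301) with DESeq2's Wald test, 7645 (4011, 3634) with voom quality weights, 29 (19, 10) with the 6 CRE libraries alone, 73 (44, 29) adjusting over genes outside chromosome 9 only, 91 (54, 37) with a 2-fold minimum and 230 (148, 82) with no low-count filter. Outside chromosome 9 the main fit held 122 calls (77, 45). The voom weight of CKO_CRE replicate 2 was 0.122, against 0.519 to 3.47 for the other 11 libraries. Leaving out 1 library gave 38 (without WT_CRE replicate 1) to 5110 calls (without CKO_CRE replicate 2), 22 to 2844 higher and 16 to 2266 lower; it gave 74, 77 and 76 without WT_PBS replicates 1 to 3, 88 without CKO_PBS replicate 3, 92 and 61 without WT_CRE replicates 2 and 3, and 65 without CKO_CRE replicate 3. Voom without weights, chosen after seeing the data, turned the split to 63 higher and 81 lower. The 9 differences between treatments became 128 (Wald test), 4371 (voom weights), 23 (no filter), 2 (sex term), 1 (voom without weights) and 0 to 2710 without 1 library, the most again without CKO_CRE replicate 2. A fit with a replicate block gave 140 calls (76 higher, 64 lower) and 2 differences between treatments. Same-numbered libraries shared deviations with correlations of 0.012, 0.176 and 0.158. For replicates 2 and 3 the same-numbered pair had the highest correlation of either library, whereas WT_CRE replicate 1 did not correlate best with its own number. Whether same-numbered libraries were paired cannot be told from these values. Of 3588 values of the 164 named genes under alternatives, 2 were counted as reversed, both for *Krt8*, which is not called: -0.35 with voom weights and -0.29 without CKO_CRE replicate 2 (up to 0.15 without another library). That count leaves out some changes of sign, such as that of *Rock1* without CKO_CRE replicate 2 (above). Of the 40 called named genes, 20 kept their call outside chromosome 9, a setting that leaves out the named genes on that chromosome. All 40 kept it with the Wald test, 31 with the block and 8 with the 6 CRE libraries. The cause was not tested.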

Other observations

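Gene groups not described above held no called member over all libraries. Inflammatory cytokines and neutrophil chemokines (17 tested) had a median log2 fold change of -0.52, with 5 lower without CKO_CRE replicate 2 (12.6% of all genes in that fit, where 15.9% were higher). The same fit called 4 genes of class II antigen presentation and 3 of mast cells and basophils lower, 5 circadian clock genes higher and 1 lower, and 1 metalloproteinase gene higher and 4 lower. It called 4 smooth muscle genes higher, 1 dendritic cell gene higher and 3 lower, and 1 basal cell or keratin gene higher and 4 lower. Natural killer cell genes (13 tested) had a median of -0.11, dendritic cell genes (14) 0.05 and genes of class II antigen presentation (11) 0.06. Matrix metalloproteinases (12) stood at -0.15, smooth muscle genes (13) at 0.04, basal cell and keratin genes (10) at -0.01, immediate early genes (15) at -0.02, circadian clock genes (15) at 0.24, tuft and neuroendocrine genes (8) at 0.13 and mesothelial genes (6) at 0.02. Genes of the thymus (3), of red blood cells (5) and of the mitochondrial genome (9) had medians of 0.10, -0.81 and -0.21.

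*Alad*, the second enzyme of haem synthesis, was chosen after its values were seen as a gene outside chromosome 9 that was called under both treatments. It stood at 46.0, 44.4 and 41.9 CPM in WT_CRE, against 73.3, 70.2 and 73.0 CPM in CKO_CRE (log2 fold change 0.71 ± 0.07, adjusted p = 0.00064), and at 30.3, 30.6 and 32.1 against 64.1, 58.7 and 65.7 CPM under PBS (1.02, adjusted p = 5.1e-05). *Inmt*, an indolethylamine methyltransferase gene also chosen this way, was at 1479 to 1800 CPM under PBS, at 139, 166 and 146 CPM in WT_CRE, against 672, 213 and 485 CPM in CKO_CRE (1.60 ± 0.30, adjusted p = 0.034). Its call ended without any WT or CKO_PBS library or CKO_CRE replicate 3 (up to 0.17). *Tlr1* fell by 1.62 ± 0.33 and *Tlr2*, its partner in sensing bacterial lipoproteins, rose by 0.52 ± 0.10 (adjusted p = 0.043 and 0.041). Both calls ended without any WT library, CKO_PBS replicate 3 or CKO_CRE replicate 3, that of *Tlr1* also without CKO_CRE replicate 1 and that of *Tlr2* without CKO_PBS replicates 1 or 2 (up to 0.17).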
